A study of Homo sapiens with 6 samples.

Results

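The data described here are the untreated wells of an siRNA screen in SUM149PT, an established cell line from an inflammatory breast cancer that lacks hormone receptors and ERBB2 amplification. Each well that carried a library siRNA was compared with wells of OTP3, the negative control siRNA, on the same plate and in the same replicate. All 939 of 939 library wells entered, 779 from the kinome set and 160 from the set for G protein-coupled receptors (GPCR), in 3 of the 6 columns of the screen. The other 3 columns held cells given eicosapentaenoic acid (EPA) at 50 µM and were not used. In each well given siRNA the cells stood for 48 hours with 45 nM siRNA and a lipid transfection reagent, and then for a further 72 hours. The untreated wells received no EPA, and whether they received its vehicle is not given in the sources used here. At the end a resazurin reagent was added and the fluorescence of each well was read once. The labels do not say that the 3 untreated replicates were separate cultures, so the p-values rest on a spread between readings that may be technical.

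Small interfering RNAs load into the RNA-induced silencing complex and lead to cleavage of the matching messenger RNA, so that the encoded protein runs down as it turns over. Living cells reduce resazurin to a fluorescent product, and a low signal therefore reports fewer cells, less metabolic activity per cell, or both; these cannot be told apart here. Kinases of DNA replication checkpoints and of mitosis are among the genes that dividing cells commonly need, while many signalling kinases have relatives that can act in their place. Transcript and protein levels after transfection were not analysed here. Each gene was targeted by 1 reagent, so an effect of losing the target and an effect of the reagent itself cannot be told apart.

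Blank wells without cells read 3738 ± 40.5 units and OTP3 wells 49202 ± 1292 (SD, n = 3 replicates). All levels below are percentages of OTP3, that is, the signal above the blank mean over the OTP3 signal above the blank mean of that plate and replicate. The median library well stood at 45.5%, 40.7% and 40.2% in replicates 1, 2 and 3. Kinome wells had a median of 42.8% ± 2.86 and GPCR wells of 39.6% ± 3.01, and on plate 3, which holds every GPCR well, the kinome wells were at 40.3% ± 4.19 (SD, n = 3). Cells alone stood at 105.2% ± 1.60 and wells marked as having no siRNA at 98.1% ± 6.30. The latter share plate 3 with library wells: in row 13, 10 such wells had medians of 90.3%, 95.8% and 82.6%, and the 10 library wells between them 49.8%, 32.1% and 26.5%. The low library median was thus seen beside wells of the same row without siRNA. The wells of TOX, the positive control, had a median of 1.67% ± 0.705 (SD, n = 3). On plate 3 of replicate 1, 3 TOX wells read 105% to 117% of OTP3, while the same wells read 0.0618% to 1.59% in replicates 2 and 3. Over 939 library wells, rank correlations (Spearman) were 0.892 for replicates 1 and 2, 0.901 for 1 and 3 and 0.913 for 2 and 3. The replicates share plate position and reagent, and the correlation was not taken for plate 3 alone.

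Plate row moved with the signal. In row 1 the library median was 72.7%, 79.7% and 85.3%, and in row 16 it was 63.2%, 63.0% and 67.8%. In row 8 it was 30.1%, 18.3% and 25.2%. The 3 rows do not overlap. Cells alone varied less in proportion, with 129.9% ± 6.74 in row 1, 99.6% ± 2.51 in row 8 and 121% ± 4.80 in row 16 (SD, n = 3). OTP3 wells, which stand only in odd rows, had 123% ± 2.64 in row 1 and 90.2% ± 2.48 in row 7. Plate columns differed too: the library median was 66.8% ± 3.48 in column 24 and 27.5% ± 5.22 in column 12. OTP3 itself stood at 112% in plate column 2 and at 88.4% in plate column 4. These 3 versions of each level are therefore used. The plain level has no position term. The row-adjusted level removes, on the log2 scale, each row's median offset from all library wells, with rows pooled over the 3 plates. Median polish removes offsets of both rows and columns on each plate. Both adjustments bring positions to the library median and not to OTP3, and the last 2 levels are geometric means over replicates.

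**Figure D1:**
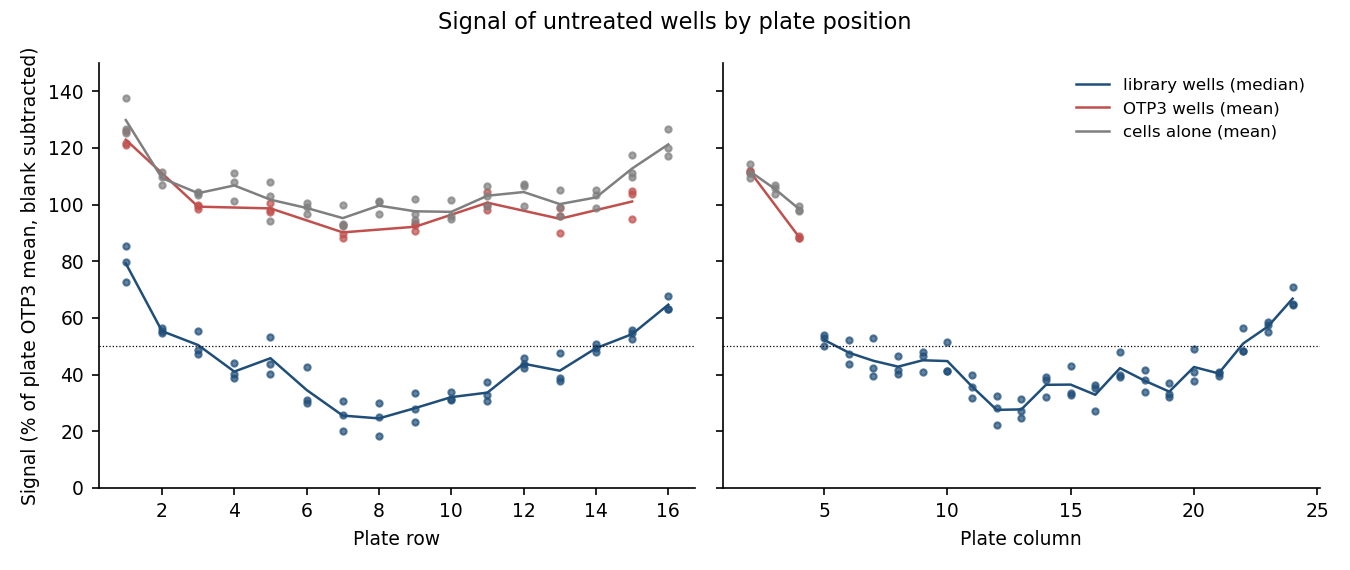
Signal of untreated wells as a percentage of the plate's OTP3 mean (vertical axis, blank subtracted) by plate row (left) and plate column (right). Points are the 3 replicates and lines their mean; the dotted line marks 50%. Library medians fall from 79.3% in row 1 to 24.5% in row 8, while cells alone stay between 95.2% and 129.9%.

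Most library wells lay below OTP3. In limma's moderated test against OTP3, 884 of 939 wells (94.1%) were lower and 8 (0.852%) higher at an adjusted p under 0.05. After row adjustment 883 (94%) were lower and 6 (0.639%) higher. A well that only differs from OTP3 is thus close to the average well, and OTP3 wells scored against the other OTP3 wells of their plate at the same p passed as lower in 16 of 48 cases (33.3%) and as higher in 15. Of those 16, all stood in plate column 4. A second call was used to describe single targets, namely a level below 50% of OTP3 in limma's treat test at an adjusted p under 0.05. It took 413 wells (44%) on the plain level, 420 (44.7%) on the row-adjusted level and 423 (45%) after median polish. In all 3 versions together it took 290 wells (30.9%). It took none of the 48 OTP3, 72 cells-alone and 21 no-siRNA wells and 21 of 24 TOX wells; the lowest OTP3 well had a mean of 70.0%.

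Row adjustment changed which wells were called more than how many. On the plain level, 12.5% of the 120 wells in rows 1 and 16 and 65.5% of the 359 wells in rows 6 to 11 were called below 50%. After row adjustment the shares were 45.0% and 45.4%, which the adjustment itself brings about. The 420 row-adjusted calls and the 413 plain calls share 341 wells. Plate columns 11 to 16 kept a higher share than the other columns after row adjustment, 60.6% against 37.9%, and not after median polish, 44.0% against 45.5%. For that reason the median polish count is given beside most gene groups.

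**Figure D2:**
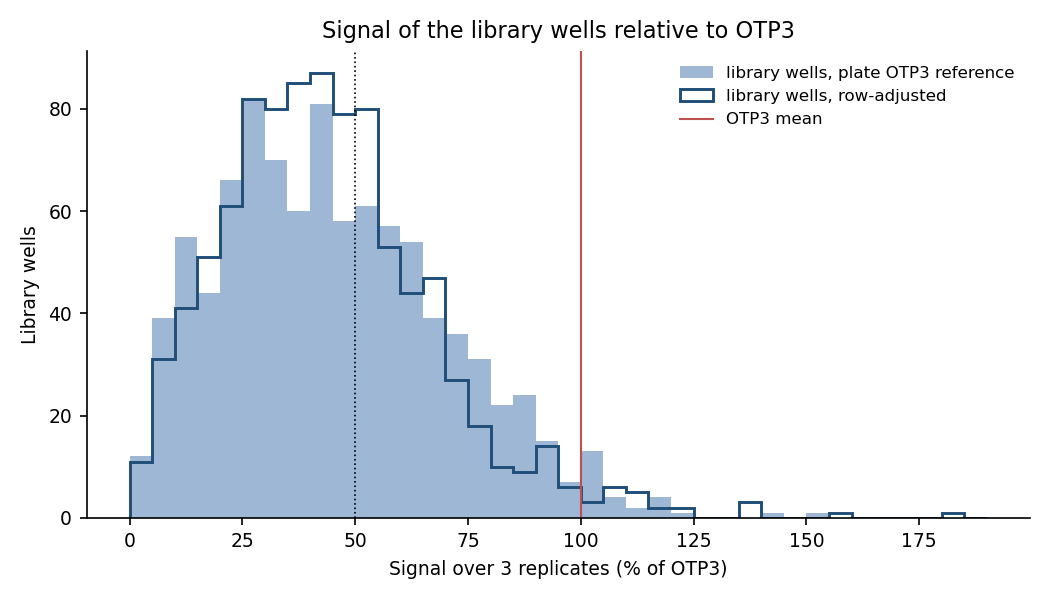
Number of library wells (vertical axis) by signal over 3 replicates as a percentage of OTP3 (horizontal axis), plain (filled, arithmetic mean) and row-adjusted (outline, geometric mean). The dotted line marks 50% and the solid line the OTP3 mean; the plain median over wells is 42.2% and the row-adjusted median 41.8%.

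Among the 20 lowest wells, CHEK1, PLK1, TTK, WEE1 and BUB1B are kinases of replication and mitosis. Most of the 20 are genes with other roles. CHEK1, the checkpoint kinase that restrains entry into mitosis while DNA is being replicated, read 4465, 5186 and 4321 units in replicates 1, 2 and 3, or 1.32%, 3.12% and 1.16% of OTP3. PLK1, the polo-like kinase that drives entry into mitosis and spindle assembly, read 3779, 3669 and 3968 units, or 0.603%, -0.212% and 0.444%. JAK2, a cytokine receptor kinase, read 4249, 3568 and 3751 units, or 1.54%, -0.422% and 0.0130%. The wells of PLK1 and JAK2 cannot be told from blank wells in any replicate, and their levels are bounds at the floor of 3 SD of the blank wells, which lay between 0.683% and 2.07% of OTP3 over plates and replicates. Readings of the other 21 TOX wells, pooled over replicates, ranged from 0.409% to 3.78%, and all readings of CHEK1, PLK1 and JAK2 lay within or below that range. In replicate 2 alone the highest TOX well read 2.41%, below the 3.12% of CHEK1. CHEK1 was not at the blank floor in any replicate. Since PLK1 and JAK2 are bounds, the order among the 3 genes has no meaning.

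Further cell-cycle kinases followed. TTK, the spindle checkpoint kinase also known as MPS1, stood at 2.39%, 1.17% and 2.76%. WEE1, which holds CDK1 inactive by phosphorylation, stood at 4.83%, 2.06% and 2.00%. BUB1B, which delays anaphase until chromosomes are attached, stood at 5.32%, 8.94% and 6.17%. All 3 were under 10% in every replicate. Their row-adjusted log2 levels against OTP3 were -4.92 (SE 0.342), -4.88 (SE 0.361) and -4.17 (SE 0.307), each with an adjusted p of 4.9e-07 in limma's test. SMG1, a kinase of nonsense-mediated mRNA decay, stood at 1.70%, 0.323% and 2.67%, with 1 replicate at the blank floor.

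Other low targets have varied roles in the cell. COPB2, a coat protein of vesicles between the Golgi and the endoplasmic reticulum, stood at 2.30%, 2.25% and 2.52%, the narrowest spread among the lowest wells (SD 0.144). PIK3C2A, a class II phosphoinositide 3-kinase that acts in endocytosis, stood at 5.87%, 6.07% and 3.63%. COASY, the enzyme of the last steps of coenzyme A synthesis, stood at 8.26%, 12.6% and 5.26%. FN3KRP, which phosphorylates sugars bound to proteins so that they come off, stood at 2.85%, 2.86% and 3.63%. Its row-adjusted level was 5.42% and its level after median polish 9.55%, since it lies in row 8 of column 16. ABI1, a subunit of the WAVE complex that drives actin branching, spread more, with 8.52%, 1.44% and 4.90%.

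The rest of the 20 lowest include genes that are better known from other tissues or have little-known roles. TRAT1, an adaptor of the T-cell receptor that the library lists as TRIM, stood at 2.91%, 1.33% and 2.29%. CCL17, a chemokine, stood at 2.08%, 0.805% and 1.87%. MYLK2, the myosin light chain kinase of skeletal muscle, stood at 9.71%, 5.00% and 4.31%. All 3 genes were under 10% of OTP3 in every replicate. ADCK5, an atypical kinase, stood at 4.24%, 5.38% and 3.24%, and PKN3, a relative of the protein kinases C, at 10.5%, 7.59% and 7.90%. CSNK2A2, a catalytic subunit of casein kinase 2, stood at 6.49%, 7.54% and 6.78%. AVPR2, the vasopressin receptor of the kidney, stood at 8.20%, 7.10% and 2.81%, and ARRB1, a beta-arrestin that uncouples receptors from G proteins, at 9.36%, 7.35% and 2.99%. These last 2 wells share row 6 of plate 3, and median polish put them at 14.1% and 12.3%, above their row-adjusted 6.74% and 7.28%.

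Of these 20 genes, 18 stood under 10% of OTP3 in 3 of 3 replicates, and the others, COASY and PKN3, exceeded it in 1. CHEK1, JAK2, COPB2, CCL17, TTK, PIK3C2A, ABI1, FN3KRP, AVPR2, ADCK5 and CSNK2A2 lie in plate columns 11 to 16, which hold 282 of 939 wells. The row-adjusted level, which ordered the 20, has no column term. Median polish put CCL17 at 3.25% and ABI1 at 7.71%, above their row-adjusted 1.92% and 4.92%. It put PKN3, in column 24, at 4.32%, below its row-adjusted 6.52%. Over the whole library 35 wells were under 10% in 3 of 3 replicates on the plain level and 20 both plain and row-adjusted. Of these 20 wells, 15 were also under 10% after median polish, where only the mean over replicates was held to the bound. By the same rules the counts under 25% were 159, 118 and 99. Without blank subtraction the row-adjusted log2 levels of the 20 genes moved toward OTP3 by unlike amounts. CHEK1 went from -6.80 to -4.21, TTK from -4.92 to -2.70 and PKN3 from -3.94 to -3.08. All 20 kept both calls, lower than OTP3 and below 50%, under each alternative that still held their wells. Leaving out wells at the blank floor removes JAK2, PLK1 and SMG1, and leaving out edge wells, those in rows 1 and 16 and column 24, removes CHEK1 and PKN3.

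**Figure D3:**
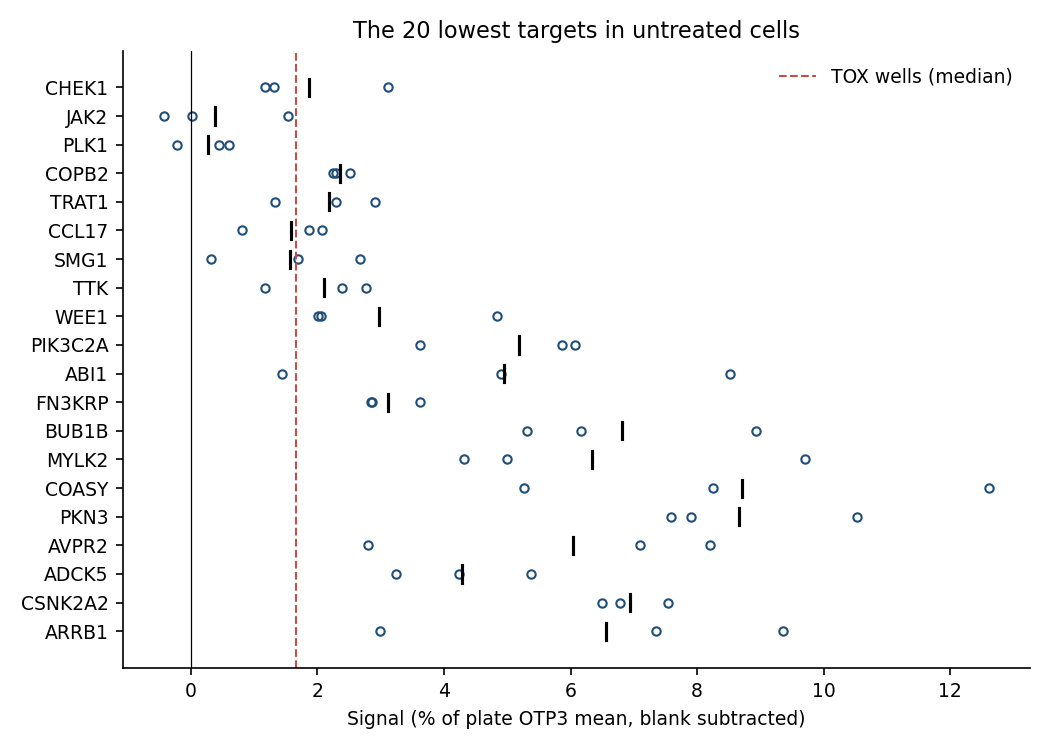
Signal of the 20 lowest library wells as a percentage of the plate's OTP3 mean (horizontal axis, linear, blank subtracted), ordered by row-adjusted level. Circles are the 3 untreated replicates, bars their mean, and the dashed line the TOX median of 1.67%; all points lie between -0.422% and 12.6%.

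Among the gene lists, that of the spindle kinases held several of the lowest wells. Of 13 measured polo, Aurora and spindle checkpoint kinases, 9 were called below 50% on the row-adjusted level and 11 after median polish, beside 44.7% and 45% of all wells. Their median row-adjusted level was 31.6%, against 41.8% for all wells. Besides PLK1, TTK and BUB1B, PLK4, the kinase of centriole duplication, stood at 6.43%, 6.01% and 10.5%, and BUB1, a kinetochore kinase, at 29.5%, 26.5% and 26.3%. AURKA, which matures centrosomes, had a row-adjusted level of 31.6%, while AURKB, of the chromosomal passenger complex, was at 49.6% and not called in any version. PBK was the highest of the list at 66.7%. The relatives of PLK1 were thus spread widely, with PLK2 at 39.1% and PLK3 at 41.2%.

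NEK kinases act in centrosomes and cilia. Of 10 measured, 4 were called below 50% both row-adjusted and after median polish, and none on the plain level, where they ranged from 43.8% to 76.9%; the shares of all wells were 44.7%, 45% and 44%. NEK1 stood at 51.4%, 42.2% and 37.7%, and its row-adjusted level of 33.7% was the lowest of the list; NEK10 was the highest at 93.8%. Of the 10 wells, 8 are in row 15 of plate 2, so this list shares 1 position.

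Checkpoint kinases of DNA damage and replication split widely. Of 14 measured, 6 were called below 50% row-adjusted and 5 after median polish, beside 44.7% and 45% of all wells, and the median row-adjusted level of 44.9% was near that of all wells. CHEK1, SMG1 and WEE1 were under 5% of OTP3 in every replicate. CDC7, which starts replication origins, stood at 34.8%, 13.7% and 11.6%, and PRKDC, the catalytic subunit of DNA-dependent protein kinase, at 24.2%, 2.32% and 17.0%. Both vary by more than 2-fold between replicates. ATR, the kinase upstream of CHEK1, stood at 50.3%, 52.0% and 61.4%, with a row-adjusted 42.1% that was not called below 50%. ATM and CHEK2, which respond to double-strand breaks, were at 64.0% and 57.6% row-adjusted, and CHEK2 at 120%, 104% and 101% on the plain level in row 1. CHEK1 was thus far below ATR, and neither ATM nor CHEK2 was called in any version.

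Cyclin-dependent kinases were mostly near the library median. Of 19 cell-cycle CDKs and relatives, 8 were called below 50% row-adjusted and 6 after median polish, beside 44.7% and 45% of all wells, with a median of 42.6%. CDK5R1 and CDK5R2, activators of CDK5, were at 19.99% and 22.9%, CDK18 at 21.3% and CDK14 at 18.8%, and CDKL1 was the highest at 72.4%. CDK1, the kinase of mitotic entry, stood at 22.5%, 22.4% and 21.2% on the plain level and at 33.3% row-adjusted. CDK2 (45.2%) and CDK4 (63.4%) were not called row-adjusted, and CDK6 (34.3%) was. In the transcription list, 4 of 13 were called row-adjusted and 6 after median polish, beside the same shares. CDK10 was the lowest of the list at 4.58%, 5.59% and 9.75%, followed by CDK11B, a kinase of splicing and transcription, at 17.6%, 11.4% and 12.7%. The well listed as CDC2L2, an older symbol of CDK11A, kept its listed symbol and is not counted in the list. It stood at 6.96%, 6.26% and 6.69%, with a row-adjusted 8.32%, and was called below 50% in all 3 versions. CDK19, of the Mediator complex, was at 25.6% row-adjusted, CDK7 at 33.9%, and CDK9, which releases paused polymerase, at 63.6% without a call.

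The counts for growth signalling downstream of receptors depended on the version. In the list of AKT, PDK1, MTOR, S6 and SGK kinases, 9 of 13 wells were called below 50% row-adjusted and 7 after median polish, beside 44.7% and 45% of all wells; the median level was 25.6% row-adjusted and 38.7% after median polish. AKT1 stood at 16.1%, 8.26% and 9.22%, and AKT2 at 22.9%, 20.3% and 18.8%. Both were called in all 3 versions. RPS6KB1, the S6 kinase that phosphorylates the ribosome, stood at 19.9%, 16.1% and 22.4%, and SGK2 at 15.6%, 7.96% and 17.6%. MTOR, the kinase upstream of RPS6KB1, was at 80.2% and SGK1, the highest of the list, at 98.4% row-adjusted. Wells of rows 6 to 11 make up 9 of these 13. The 13 wells stand for 12 genes, since AKT1 has 2 wells with the same reagent, both called below 50% row-adjusted.

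The RAF, MEK, ERK and RSK cascade gave 13 of 21 wells called below 50% row-adjusted and 9 after median polish, beside 44.7% and 45% of all wells. The median was 35.7% row-adjusted and 39.5% after median polish, where both count and median were near those of the library, and 6 of 21 were called in all 3 versions, beside 30.9% of all wells. RPS6KA2, an RSK, stood at 13.2%, 9.93% and 10.7%. MAPK3 (ERK1), a kinase at the end of the cascade, stood at 16.2%, 19.2% and 9.68%. BRAF was at 21.7%, 21.99% and 19.3%, while its relative ARAF (43.6%) was not called row-adjusted. MAP2K1, a MEK of the cascade, was at 26.6% row-adjusted and 41.7% after median polish, where it lost the call. MKNK1 was the highest at 70.5%. MAPK4, an atypical MAP kinase, was at 22.4%.

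Lipid kinases were counted in small classes, and differences between classes were not tested. Of 9 kinases of soluble inositol phosphates, 7 were called below 50% row-adjusted, 8 after median polish and 3 on the plain level, beside 44.7%, 45% and 44% of all wells. IPPK, which makes inositol hexakisphosphate, was the lowest at 29.6%, 21.95% and 19.6%, and ITPKA was at 29.2%, 32.6% and 29.1%. IP6K3 and IP6K2 (24.3% and 32.7% row-adjusted) lie in row 1, as does IP6K1, the highest at 45.7%. Of 9 kinases of phosphatidylinositol and its phosphates, 6 were called row-adjusted and 5 after median polish, with PI4K2B lowest at 24.6%, 19.5% and 19.4% and PIP4K2A highest at 65.3% row-adjusted. Class I PI3K subunits gave 3 of 6 row-adjusted and 4 after median polish: the regulatory subunit PIK3R2 was at 26.2%, PIK3CG at 31.7%, PIK3CB at 32.1%, and PIK3CA, a catalytic subunit, at 54.3% without a call. In class II, PIK3C2A was far below PIK3C2B (21.8%) and PIK3C2G (53.1%).

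Casein kinase wells differed widely between subunits of 1 enzyme. Of 12 wells in the list of casein kinases and GSK3, 5 were called below 50% in all 3 versions, beside 30.9% of all wells. Casein kinase 2 is a tetramer of catalytic and regulatory subunits: CSNK2A2 was at 6.94% ± 0.543 and the regulatory CSNK2B at 12.4% ± 1.04, but the other catalytic subunit, CSNK2A1, at 59.6% ± 9.25 (SD, n = 3). The replicates of CSNK2A1 (69.4%, 58.5% and 51.0%) do not overlap those of the other two. Their 3 wells lie in row 4 of plate 1, in columns 13, 15 and 17. CSNK1G1 stood at 6.61%, 7.83% and 9.94%, and CSNK1A1, the kinase that primes beta-catenin for destruction, was at 21.3% row-adjusted. GSK3B, which acts after it, was the highest at 100.2%, 105% and 102%, and its relative GSK3A was at 44.2% row-adjusted.

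AMPK and its upstream kinases gave 4 of 7 called below 50% row-adjusted and 5 after median polish, beside 44.7% and 45% of all wells. PRKAG3, a regulatory subunit, stood at 8.497%, 9.91% and 10.04%, and STK11 (LKB1), the activating kinase, at 15.3%, 9.82% and 12.4%. CAMKK2 and CAMKK1, the calcium-dependent activators, were at 22.5% and 27.0% row-adjusted. The catalytic subunits PRKAA1 (54.1%) and PRKAA2 (91.6%) were not called.

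Receptor tyrosine kinases lay on plain means between 5.33% (EPHA6) and 118% (FGFR1). Of 13 Eph receptors, 6 were called below 50% row-adjusted, 7 after median polish and 4 on the plain level, beside 44.7%, 45% and 44% of all wells. EPHB2 stood at 14.6%, 11.6% and 13.9% in row 16, where the library median is above 60%, and EPHA6 at 6.89%, 4.72% and 4.37% in row 8. EPHB6 and EPHA1 were at 25.4% and 31.4% row-adjusted, and EPHA2 was the highest at 76.0%. Edge wells make up 10 of the 13. Of the ERBB receptors, EGFR stood at 41.0%, 37.4% and 33.5% and was called in all 3 versions. ERBB4 was at 23.1%, 37.7% and 57.7%, with each replicate apart from the others, and ERBB3 and ERBB2 were at 57.4% and 77.2% row-adjusted without a call. ERBB2 on the plain level was at 106%, 100.3% and 98.2%.

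JAK2 stood apart from the other JAK kinases. JAK3, in the same row of the same plate, was at 58.6%, 50.0% and 29.5%, and JAK1, also there, at 78.3%, 55.1% and 60.4%. TYK2 was at 71.0%, 73.7% and 78.6% on plate 3. None of the 3 was called below 50% in any version.

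TGF-beta and BMP receptors were, among the lists of at least 10 wells, the one with the fewest row-adjusted calls. None of 12 was called below 50% on the plain or row-adjusted level, beside 44% and 44.7% of all wells, and 4 were after median polish. Their median was 55.1% row-adjusted and 41.4% after median polish, beside 41.8% and 41.3% for all wells. Median polish changes both the column term and the row term, and which of them moved these wells was not tested. ACVR1B and ACVR1, type I receptors, were at 40.8% and 38.9%, BMPR1A at 46.5%, TGFBR2 at 51.8% and ACVR2A, the highest, at 77.4%. Kinases of the integrated stress and unfolded protein responses had 1 of 5 called row-adjusted, ERN1 at 28.2%, and none after median polish. The kinases that phosphorylate the initiation factor eIF2 alpha ranged from 59.9% (EIF2AK1) to 101% (EIF2AK2).

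**Figure D4:**
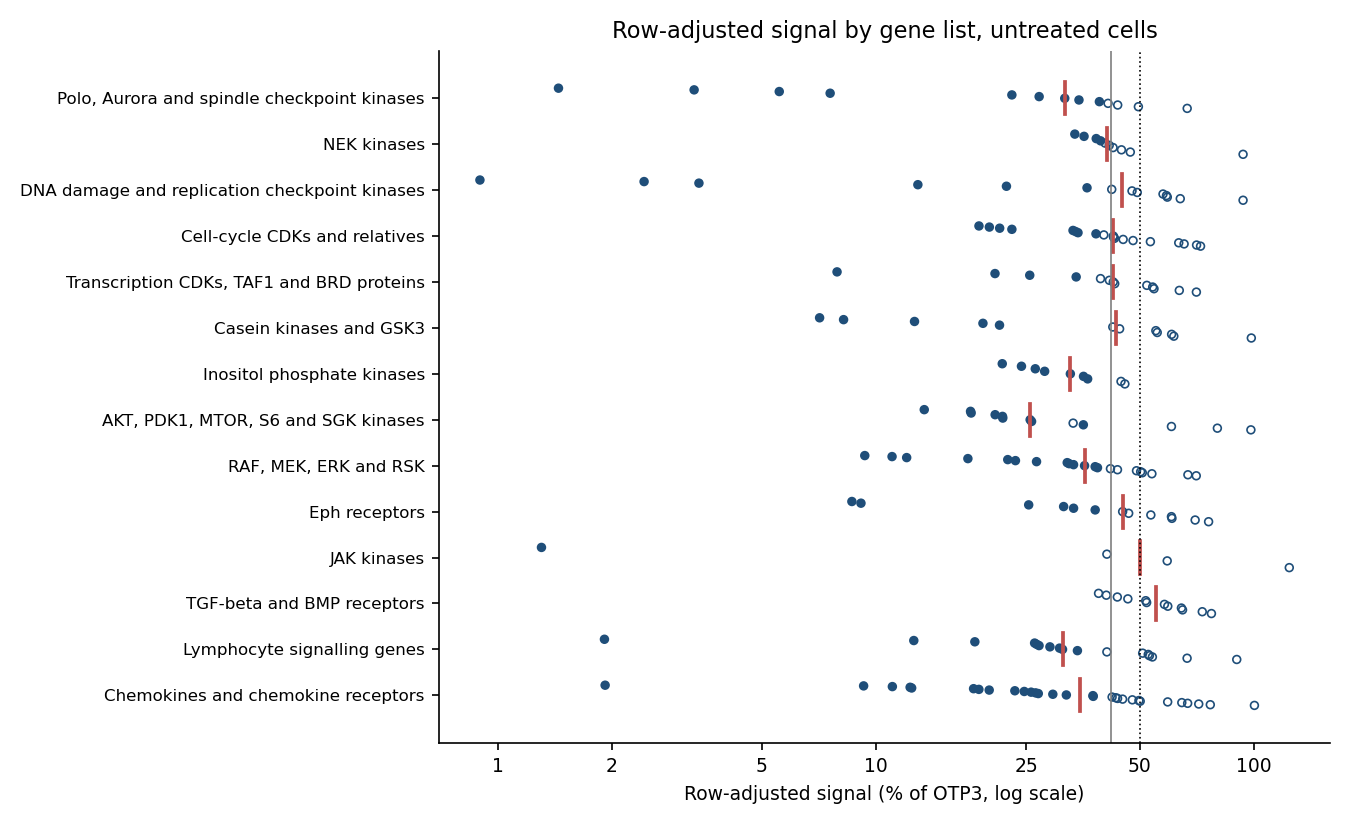
Row-adjusted signal as a percentage of OTP3 (horizontal axis, log scale) of the wells in 14 gene lists. Each point is a well, filled where it was called below 50% in limma's treat test; red bars are list medians, the grey line the median of all library wells (41.8%) and the dotted line 50%.

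Several lists moved with plate row. Of all library wells, 44% were called below 50% on the plain level, 44.7% row-adjusted and 45% after median polish. Each count in this paragraph stands beside those shares. Of 15 protein kinases C, D and N, 14 lie in rows 6 to 11, and the wells called below 50% went from 9 on the plain level to 4 row-adjusted and 5 after median polish. PKN3 and PRKCI (32.7%) were among those still called, PRKCE (46.4%) did not, and PRKD1 was at 116% row-adjusted. SIK, MARK, NUAK and BRSK kinases went from 7 of 14 to 2 row-adjusted and 5 after median polish; MARK4, at 20.4%, 6.79% and 12.5%, was 1 of the 2, and SIK2, at 17.5%, 3.03% and 7.87%, the other. Nucleotide and nucleoside kinases went from 16 of 29 to 8 and 12. GUK1, the guanylate kinase, was at 21.2% row-adjusted, NME3 at 23.4% and PRPS1, which makes the ribose precursor of nucleotides, at 23.4%. In the other direction, G-protein subunits, with 11 of 15 wells at the plate edge, went from 1 to 7 row-adjusted and 9 after median polish. GNA14 stood at 31.9%, 31.7% and 26.1%, GNB3 and GNB4 were at 29.8% and 33.0% row-adjusted, and GNAI1 was the highest at 58.3%.

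Metabolic kinases followed no common level. Of 20 kinases of sugars, glycerol and cofactors, 5 were called row-adjusted and 9 after median polish, beside 44.7% and 45% of all wells. GALK1, the galactokinase, stood at 10.8%, 4.26% and 6.75%, and GALK2 at 18.5%, 15.1% and 11.1%. PANK4 was at 25.5% row-adjusted, while PANK1 (66.8%) and PANK3 (82.2%), which start coenzyme A synthesis ahead of COASY, were not called. GK2, a glycerol kinase in column 24, was at 119% row-adjusted and at 69.9% after median polish, where it passed as lower than OTP3 (limma adjusted p 0.0082). The list of mitochondrial and creatine kinases gave 9 of 15 row-adjusted and 5 after median polish, beside the same shares. PCK1, a cytosolic enzyme of gluconeogenesis placed in that list, stood at 7.70%, 6.45% and 7.39%. AK4, an adenylate kinase, stood at 13.2%, 9.54% and 5.30%.

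Genes known from lymphocytes, and chemokines, were called about as the library was after median polish. Lymphocyte signalling genes had 17 wells for 16 genes. Of these wells, 10 were called below 50% row-adjusted and 8 after median polish, against 44.7% and 45% of all wells. Beside TRAT1, CD4, the T-cell coreceptor, stood at 8.58%, 5.21% and 13.01%, and LCK, the kinase bound to it, at 15.9%, 11.03% and 10.1%. TXK was the highest at 90.3% row-adjusted. Of 30 wells for 29 chemokines and chemokine receptors, 17 were called row-adjusted and 15 after median polish, against the same shares. CXCR5 stood at 7.78%, 5.42% and 5.98%, CX3CR1 at 19.1%, 18.0% and 19.8%, and CXCL1 at 17.6%, 17.1% and 23.2%; CCL3 was at 101% row-adjusted. Expression of these genes in SUM149PT was not measured here, and whether reagents against genes the cells do not express give such levels was not tested.

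Receptors for lipids were also spread over the whole range. Of 13 wells, 8 were called row-adjusted and 7 after median polish, beside 44.7% and 45% of all wells. LPAR3, a receptor of lysophosphatidic acid, stood at 7.26%, 7.56% and 8.66%, whereas LPAR1, a receptor of the same ligand, stood at 97.5%, 84.4% and 77.9%. S1PR2, a receptor of sphingosine 1-phosphate, was at 13.99%, 12.7% and 15.1%, and S1PR1 at 39.0%, 41.8% and 43.9%. The replicates of the 2 receptors overlap in neither pair. The leukotriene receptors CYSLTR2 and CYSLTR1 were at 22.5% and 25.1% row-adjusted.

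The same reagent was present in 2 wells for 13 genes, which gives a measure of error between positions. The 2 wells of each pair lie on different plates, so that error includes plate. The median difference between such wells was 0.54 on the plain log2 scale, 0.58 row-adjusted and 0.52 after median polish. In the row-adjusted fit the median SE between replicates was 0.154. Every replicate has the same layout, so the SE between replicates does not hold differences between positions. GRK2, a kinase of activated receptors, stood at 15.6% ± 2.31 and 16.2% ± 3.13 (SD, n = 3). AKT1 stood at 11.2% ± 4.30 on plate 1 and 17.7% ± 7.27 on plate 3. Both wells of each of these genes were called below 50%. The largest difference was for AVPR1A, a vasopressin receptor, with 34.4% ± 4.82 in row 15 of plate 1 and 6.58% ± 1.87 in row 6 of plate 3, 2.41 apart on the plain log2 scale, 1.74 row-adjusted and 1.35 after median polish. That second well stands between those of ARRB1 and AVPR2. BDKRB2, a bradykinin receptor, was at 77.8% ± 12.6 in row 1 and 38.6% ± 9.40 in row 8.

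Among the other pairs, AVPR1B was at 40.8% ± 12.3 and 20.04% ± 8.40, and CD3E at 20.6% ± 4.46 and 40.3% ± 5.98. CCL2 was at 30.2% ± 6.01 and 22.4% ± 1.34, ADRA1A at 28.6% ± 10.04 and 42.2% ± 8.45, and ADRA1B at 42.5% ± 4.29 and 54.5% ± 7.02. AGTR2 (38.2% ± 5.43 and 42.4% ± 3.604), GRK3 (48.3% ± 17.4 and 66.9% ± 5.82) and TAOK2 (74.7% ± 11.6 and 100.4% ± 2.99) follow. The row-adjusted call below 50% was the same in both wells for 11 of 13, all but ADRA1A and CCL2. On the plain level it was the same for 8 of 13, all but ADRA1A, AGTR2, AVPR1B, BDKRB2 and CD3E.

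**Figure D5:**
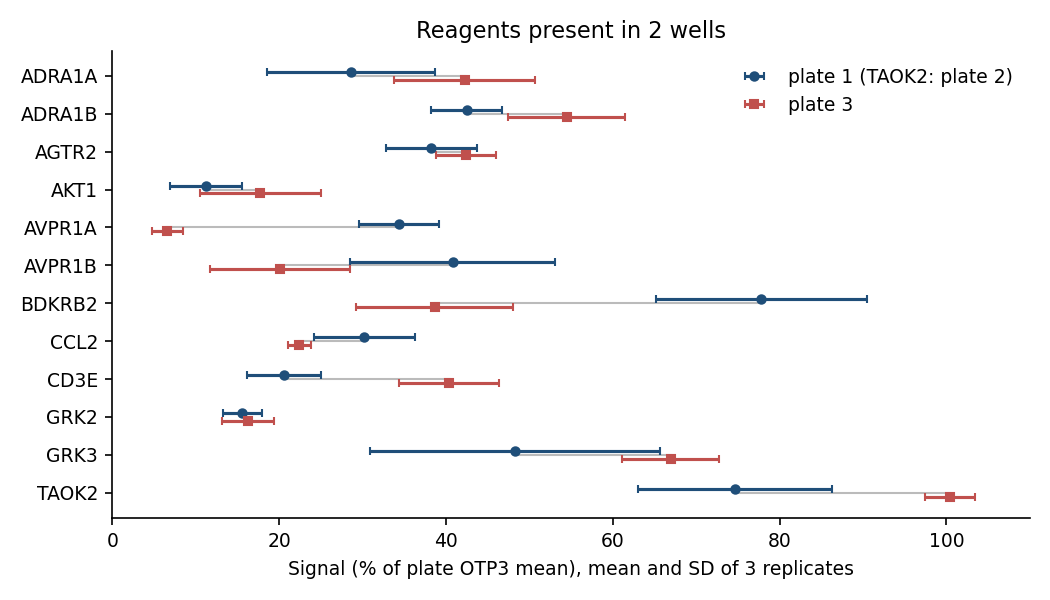
Plain signal as a percentage of the plate's OTP3 mean (horizontal axis) of 12 of the 13 reagents present in 2 wells. Symbols are means and bars the SD over 3 untreated replicates; the wells of GRK2 nearly coincide, and those of AVPR1A, at 34.4% and 6.58%, differ the most on the log2 scale.

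Signals above OTP3 depended on position. The 8 wells higher than OTP3 on the plain level were EDNRA, GPR183 (an oxysterol receptor), BMPR1B (a BMP receptor), CHRM1 (a muscarinic receptor), FGFR1 (a fibroblast growth factor receptor), RIPK3 (a kinase of necroptosis), CILK1 (a kinase of cilia) and CHKB (a choline kinase). All 8 are edge wells, and the replicates of those other than EDNRA ranged from 102% to 147%. EDNRA, an endothelin receptor, stood at 166%, 148% and 144% in column 24 of plate 3. It was the only 1 of them also higher after row adjustment (0.65, SE 0.135, limma adjusted p 0.00059), and median polish put it at 85.1% with an adjusted p of 0.224. FPR1, a formyl peptide receptor, had the highest row-adjusted level, 183%, from plain levels of 98.5%, 113% and 102% in row 8 of column 24, and median polish put it at 83.5%. TYK2, TNNI3K, DLG1 and ADAM9 were higher than OTP3 only after row adjustment, at 124%, 135%, 138% and 139%, from wells in rows 7 and 8 whose plain means lay between 74.4% and 83.2%. ADAM9, a membrane metalloprotease, was the only well of the 10 highest besides F2R that was also higher after median polish, at 129% (adjusted p 0.0258). F2R, the thrombin receptor, stood at 97.7%, 91.3% and 90.1% on the plain level, with 115% row-adjusted (adjusted p 0.136) and 163% after median polish. GK2, PRKD1 and NPVF, the rest of the 10, did not pass as higher in any of the 3 versions, and PRKD1 and NPVF lay below OTP3, at -0.45 and -0.40 (log2), with row effects taken from OTP3 wells. No well was thus higher than OTP3 in all 3 versions.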

How the data were processed

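Per the file headers, the deposited table gives unprocessed fluorescence intensity, 1 reading per well and column; no correction by the authors is given in the sources used here. The columns name a group and not a sample, and 3 columns of EPA-treated cells were not used. The table holds 1152 wells on 3 plates. Symbols were updated by locus identifier through a RefSeq gene table (GRCh38.p14), which named 932 wells; LYN was named by its transcript and 6 wells keep the listed symbol. Sequences of the reagents were not used here.

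The blank mean of each plate and column was subtracted, values under 3 SD of the blank wells were set to that floor, and the value was divided by the OTP3 mean of that plate and column. On the log2 scale, limma 3.58.1 in R 4.3.3 (trend and robust options) tested the mean of 3 columns against 0, and its treat function against a log2 bound of 1, over all 939 wells with Benjamini-Hochberg adjustment at 0.05. Each row-adjusted value had its row's median offset removed. The fit was tested on simulated data. Precision is limited by 3 readings per well and by the distance from the blank level. The well of a pair such as AKT1 that is quoted alone is the lower one.

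Named are the 20 lowest wells called lower in both versions, the 10 highest, the 13 reagents on 2 wells, and in each list described the 2 to 4 members with the largest row-adjusted statistic and the highest member; other genes were chosen after their values were seen. Some genes that these rules select are not reported here. The members and the 45 lists were chosen with earlier results of these data known. Of 828 listed genes, 630 were measured. Alternatives covered blank subtraction, floor, reference, variance model, threshold, filter, edge wells, scale, row effects and leaving out each replicate.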

Additional observations from a re-analysis of the deposited data

How the results depend on the processing

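No paired analysis was possible because only the untreated columns of 1 group enter, and the columns are numbered 1 to 6 through both groups. Under 18 alternatives, the counts lower than OTP3 and below 50% kept within 1.5 times their main value; the row-adjusted count below 50% ran from 349 to 404 with 1 replicate left out, was 328 with the OTP3 wells of plate column 4 as the only reference, and 407 without plate 3 of replicate 1, the last 2 chosen after seeing the data. The row effect from OTP3 wells gave 403 calls, 342 of them shared with the main 420, and median polish 423, with 343 shared. The library median moved from 42.1% to 46.6% without blank subtraction and to 47.7% against plate column 4. The 8 wells higher than OTP3 became 2 without trend and robust options, 0 without edge wells, where all 8 lie, and 25 against plate column 4; the cause of the first was not tested. The calls of the 20 lowest genes held in all 355 values under alternatives that included them. Without blank subtraction their row-adjusted log2 levels moved toward OTP3 by unlike amounts. CHEK1 went from -6.80 to -4.21, SMG1 from -5.36 to -2.78 and PKN3 from -3.94 to -3.08. Of the 10 highest, values on the other side of OTP3 were found on the linear scale, in percentage points, for PRKD1 (-15.7, limma adjusted p 0.015), NPVF (-13.2, adjusted p 0.034), TYK2 (-8.98), TNNI3K (-2.13), DLG1 (-3.19) and ADAM9 (-0.164). The same 6 genes were at -0.45, -0.40, -0.27, -0.15, -0.21 and -0.11 (log2) with row effects from OTP3 and at -0.51, -0.46, -0.28, -0.16, -0.26 and -0.12 with those from cells alone, chosen after seeing the data, where FPR1 fell from 0.87 to 0.14 and lost its call (adjusted p 0.056). F2R and GK2 were at -0.023 and -0.093 with the former and at -0.021 and -0.032 with the latter. Median polish put GK2 at -0.52 (adjusted p 0.0082), PRKD1 at -0.010, TYK2 at -0.46, EDNRA at -0.23 and FPR1 at -0.26. The cause was not tested. Levels under the blank floor, 0.683% to 2.07% of OTP3, cannot be ranked.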
